A study of Mus musculus with 5 samples.

Results

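This account covers 10 genes of the G1 phase machinery in mouse myeloid progenitors labelled Mll1 knockout or control: the D-type cyclin genes Ccnd1, Ccnd2 and Ccnd3, the E-type cyclin gene Ccne1, the kinase genes Cdk2, Cdk4 and Cdk6, and the RB family genes Rb1, Rbl1 and Rbl2. They were found by gene name among the 31626 genes of each file, with 1 row per name. The names were set by gene family, with earlier results of these data known. Of the 10, 9 passed the filter of at least 1 FPKM (fragments per kilobase of gene, scaled to the mapped fragments of the library) in at least 2 libraries, among 11780 genes tested, and Ccnd1 did not.

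The Mll1 knockout group has 2 libraries, from cells labelled MLL1 -/- after transduction with cre, and the control group has 3, from MLL1 flox/flox cells transduced with control. Both groups are common myeloid progenitors (CMP) of C57Bl/6 mice that had been transformed with MSCV-MN1-IRES-GFP, a retrovirus carrying the leukaemia gene MN1 and a fluorescent marker. Cells of both groups grew in M3234, a methylcellulose medium, with serum, IL3, IL6 and SCF, and were sorted at day 7. The viral promoter drives MN1 in both groups, and the floxed exons of Mll1 are not named in the labels. Cells with intact Mll1 that received cre were not analysed here, so an effect of cre itself and one of Mll1 loss cannot be told apart. The labels give no origin of the replicates in mice or cultures, and p-values therefore measure only the spread among these libraries, possibly a technical one.

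D-type cyclins are made in response to growth factors and activate CDK4 and CDK6, which phosphorylate RB1 and its relatives p107 (Rbl1) and p130 (Rbl2). Phosphorylation frees E2F factors, which switch on Ccne1 and the genes of DNA replication, and cyclin E with CDK2 then carries the cell into S phase. In blood, CDK6 with cyclins D2 and D3 is known as a main G1 kinase of progenitors, and Cdk6 is known as a target of MLL fusion proteins in leukaemia.

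The targeted gene Mll1, encoding a histone H3 lysine 4 methyltransferase, stood at 6.22 and 5.32 FPKM in the knockout libraries, against 9.67, 7.28 and 7.19 FPKM in the controls (exact two-sided permutation p = 0.1, the smallest that 10 splits of 5 libraries allow). Its log2 difference was -0.41 and did not pass the test across all genes (limma adjusted p = 0.158). The files give FPKM without counts, so the depth of each library is unknown. The worth of 1 read, judged from the steps of low genes, lay between 0.98 and 1.018 of that in control replicate 1 in the other libraries. All 5 progenitor markers were present in every library and summed to 2944 and 3060 FPKM in the knockouts, against 2238, 1495 and 1549 FPKM in the controls. Mpo made up most of the knockout sums, and the markers did not all move the same way. Kit stood at 61.0 and 57.1 FPKM in the knockouts, against 112, 75.4 and 64.6 FPKM in the controls (limma adjusted p = 0.266). Cd34 fell to 216 and 212 FPKM in the knockouts, against 685, 600 and 587 FPKM in the controls, and Mpo, Fcgr3 and Gata2 rose (limma adjusted p = 0.0469, 0.0078 and 0.0439), with Mpo at 2385 and 2509 FPKM in the knockouts, against 1303, 694 and 775 FPKM in the controls. The 6 lymphoid markers summed to 0.450 and 0.426 FPKM in the knockouts, against 1.06, 1.47 and 1.17 FPKM in the controls, with Cd3g at 0 in all 5 libraries and Il7r at 0.149 and 0.207 FPKM in the knockouts and 0.777, 0.915 and 0.679 FPKM in the controls. Control replicate 1 stood apart from the other controls. The 10 mature neutrophil markers, of which none was at 0 in all libraries, summed to 22416 and 20684 FPKM in the knockouts, to 6409 FPKM in control replicate 1 and to 794 and 1054 FPKM in control replicates 2 and 3. S100a8 and S100a9, which encode the subunits of calprotectin, made up most of that sum, with S100a8 at 11794 and 10986 FPKM in the knockouts, against 3129, 347 and 485 FPKM in the controls. Camp, Ngp and Ltf, of the secondary granules, were instead highest in control replicate 1, with Ngp at 64.7 and 58.3 FPKM in the knockouts, against 106, 4.05 and 4.52 FPKM in the controls. Lcn2 was higher in the knockouts, at 263 and 259 FPKM, against 136, 77.9 and 86.2 FPKM in the controls (limma adjusted p = 0.0367). No other neutrophil marker was called. Itgam stood at 18.4 and 17.6 FPKM in the knockouts, against 15.2, 4.78 and 3.93 FPKM in the controls. Mmp8 and Cxcr2 overlapped between the groups, and Mmp9 was at or near 0 throughout. In a bulk sample, fewer cells of a type and less RNA per cell cannot be told apart.

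None of the 9 tested G1 genes passed the test between Mll1 knockout and control cells (limma, adjusted p under 0.05), and 9.79% of all genes tested did (3.82% higher and 5.97% lower). At an adjusted p under 0.1 there were 3 of 9, Ccne1, Cdk6 and Rb1, beside 20.7% of all genes. The same 3 genes had an unadjusted p under 0.05, beside 29.8% of all genes. Across all genes 450 were called higher and 703 lower, or 589 and 603 after median-ratio scaling. Knockout values lay above the range of the controls in 2 of 9 genes, Ccnd3 and Ccne1, beside 22.9% of all genes, and below it in 3, Cdk6, Rb1 and Rbl2, beside 29.4%. Together that was 5 of 9, beside 52.4% of all genes, a share near the background. The median absolute log2 difference was 0.17 over the 9 genes and 0.22 over all genes tested.

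**Figure D1:**
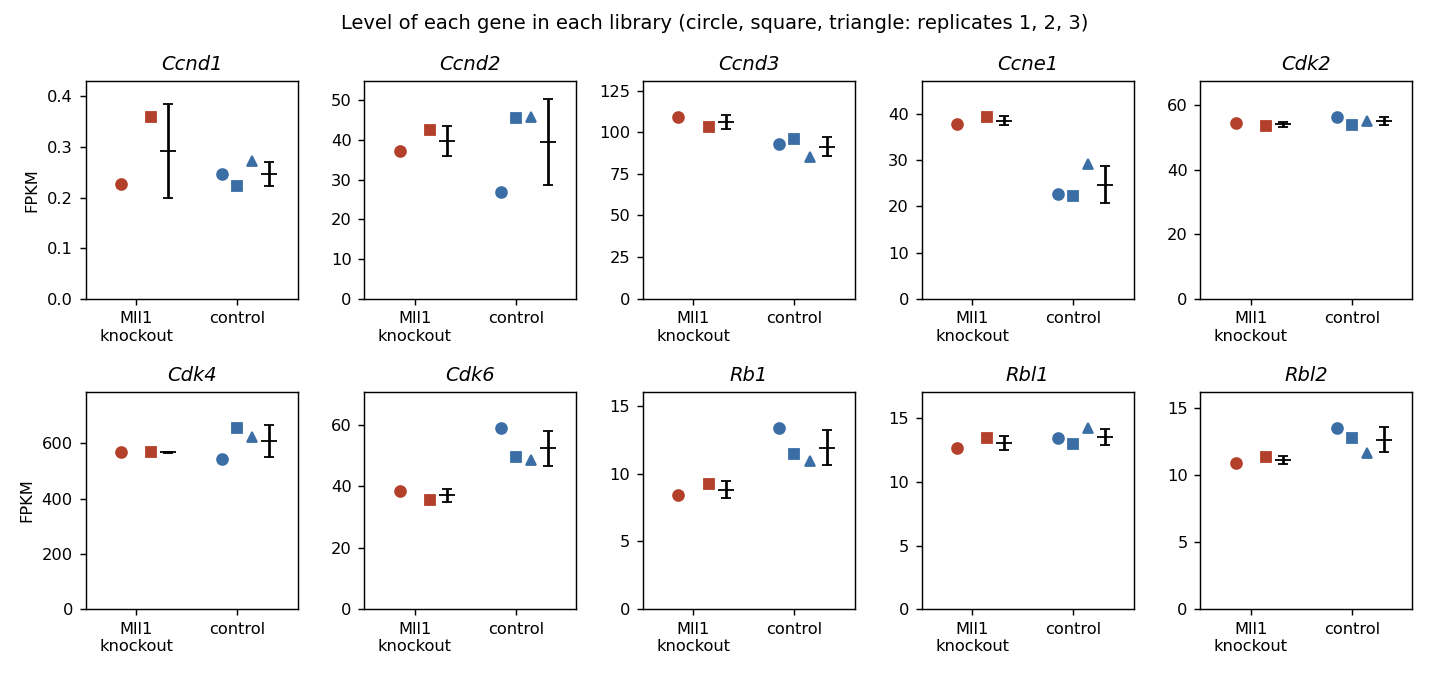
FPKM of each of the 10 genes (y axis, from 0, own scale per panel) in the Mll1 knockout libraries (left, red, n = 2) and control libraries (right, blue, n = 3), with the mean and SD as black bars. Ccne1 sits higher in both knockout libraries (37.9 and 39.3 FPKM) than in any control, Cdk6 and Rb1 sit lower, and Ccnd2 is spread widely among the controls.

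By level, Cdk4 led in both groups, at 568 ± 0.940 FPKM in knockout cells (SD, n = 2) and 608 ± 57.6 FPKM in control cells (SD, n = 3); 0.730% of tested genes had a higher mean in controls. Ccnd3 and Cdk2 came next in both groups, without overlap with the gene above. In the knockout libraries Ccnd2, Ccne1 and Cdk6 followed with overlapping ranges, at means of 39.8, 38.6 and 37.1 FPKM. In the controls the order was Cdk6, Ccnd2 and Ccne1, at 52.4, 39.4 and 24.7 FPKM; the range of Cdk6 overlapped that of Cdk2 above it and not that of Ccnd2 below it, and the ranges of Ccnd2 and Ccne1 overlapped. The RB family stood lower, with Rbl1, Rbl2 and Rb1 in that order without overlap in the knockouts and with overlap between neighbours in the controls. Ccnd1 was last in both.

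Among the D-type cyclins these cells expressed Ccnd3 and Ccnd2 and almost no Ccnd1. Ccnd3, the cyclin D most used by blood progenitors and lymphoid precursors, stood at 109 and 103 FPKM in the knockouts, against 93.1, 95.9 and 85.2 FPKM in the controls. Both knockout values were above every control, the log2 difference was 0.21 (SE 0.085), and limma gave an adjusted p of 0.171. Its 95% interval ran from 0.998-fold to 1.35-fold on the log2(FPKM + 1) scale. Exons of Ccnd3 overlap Bysl on the opposite strand, which was also higher in both knockout libraries than in any control. Bysl stood at 46.1 ± 0.750 FPKM in knockout cells (SD, n = 2) and 34.1 ± 6.69 FPKM in control cells (SD, n = 3). The log2 difference of Bysl was 0.44 (limma adjusted p = 0.173), and its part in the Ccnd3 values was not tested. A processed copy, Ccnd3-ps, was listed at 0.328 and 0.547 FPKM in the knockouts and at 0.334, 0.443 and 0.302 FPKM in the controls.

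Ccnd2, the cyclin D induced by cytokines through STAT5, had the widest spread of the tested genes. It stood at 37.1 and 42.4 FPKM in the knockouts, against 26.9, 45.6 and 45.7 FPKM in the controls. The groups overlapped, and control replicate 1 was the lowest of the 5 libraries. The log2 difference was 0.051 (SE 0.26, limma adjusted p = 0.915), and without control replicate 1 it was -0.20 (adjusted p = 0.138). Control replicate 1 lay 0.74 below the other controls on the log2 scale in Ccnd2, a difference larger than any between the groups among the 9 genes. On the same scale, the median of the neutrophil markers lay 1.77 and 1.73 above control replicates 2 and 3 in the knockouts and 1.84 above them in control replicate 1. Their part in the Ccnd2 value was not tested, and the Ccnd2 values of the knockouts lay between those of the controls.

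Ccnd1, the cyclin D of many epithelial and mesenchymal cells, was at 0.227 and 0.359 FPKM in the knockouts and at 0.246, 0.224 and 0.272 FPKM in the controls. It stayed below the filter in every library and was not tested. Ccnd1 made up 0.200% ± 0.0639 of the summed D-type cyclin FPKM in knockout cells (SD, n = 2) and 0.190% ± 0.0278 in control cells (SD, n = 3). Ccnd3 held 72.6% ± 2.68 in knockout cells and 70.0% ± 6.58 in control cells. Ccnd2 held 27.2% ± 2.61 in knockout cells and 29.8% ± 6.58 in control cells. The lowest and highest Ccnd2 shares, 22.3% and 34.8%, were both found among the controls.

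**Figure D2:**
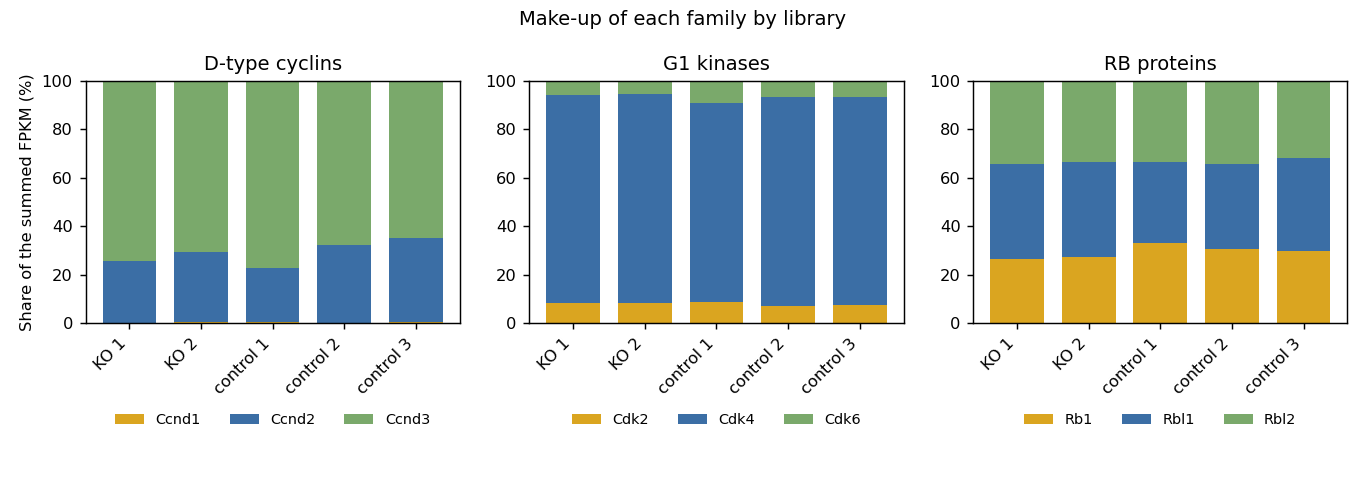
Share of each gene in the summed FPKM of its family (y axis, percent) in each library, Mll1 knockout (KO) replicates left and controls right. Ccnd3 and Cdk4 lead their families in all 5 libraries, and the Cdk6 share is lower in both knockouts (5.83% and 5.43%) than in any control.

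Ccne1, which encodes the cyclin that activates CDK2 at the entry to S phase, had the largest difference of the 9 genes. It stood at 37.9 and 39.3 FPKM in the knockouts, against 22.8, 22.2 and 29.2 FPKM in the controls. Both knockout libraries were above every control. The difference was 0.63 on the log2 scale (SE 0.14), 1.55-fold with a 95% interval from 1.21 to 1.98. The limma adjusted p was 0.0537, just short of the threshold, and the exact permutation p was 0.1. The call depended on the setting: the adjusted p was 0.0444 after median-ratio scaling and 0.0476 without control replicate 3, the highest control, and reached 0.332 without knockout replicate 2. In the first of these settings 10.1% of all genes were called, and in the second 1.73%. Among all tested genes, 13.0% had a larger absolute difference. The part of the neutrophil markers, which summed to 22416 and 20684 FPKM in the knockouts and to 6409, 794 and 1054 FPKM in the controls, in this difference was not tested.

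Ccne2, which encodes the other E-type cyclin, held a failed estimate in control replicate 3 and was left out of the test. Its remaining values were 16.0 and 18.2 FPKM in the knockouts and 14.3 and 10.6 FPKM in the controls. With the failed value set to missing, a choice made after seeing the data, its log2 difference was 0.44 (SE 0.18) and its limma adjusted p 0.193. Exons of Ccne2 overlap Ints8 on the opposite strand, and those of Ccne1 overlap no gene there. Over the 5 libraries, the genes whose centred log2 profile lay nearest to that of Ccne1 were Tle1, a Groucho-type corepressor gene, Larp2, Pmm2, a mannose phosphate enzyme gene, and Cebpb, a myeloid transcription factor gene. Their mean absolute differences from it were 0.034, 0.041, 0.045 and 0.051. Cebpb stood at 34.9 and 37.0 FPKM in the knockouts, against 20.2, 20.9 and 24.7 FPKM in the controls.

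The start regions of the genes that differed most, Ccne1 and Cdk6, are shown with those of Cdk4, the most abundant of the 10, and Rbl1, which carries an E2F-type match, so that their letters can be set side by side. They come from RefSeq on GRCm38.p6, from 250 bases before to 50 after the annotated start, 5′ to 3′ on the gene's strand; 7 of the 10 genes had a window, 8 windows in all. Capitals mark matches, on either strand, to GGGCGG (the GC box of SP factors), CACGTG (the E-box of MYC and its relatives), TTTCCCGC, TTTCGCGC or TTTGGCGC (E2F-type letters), and TTTGAA (the cell cycle homology region, CHR).
Ccne1, chr7:38107441-38107740, minus strand: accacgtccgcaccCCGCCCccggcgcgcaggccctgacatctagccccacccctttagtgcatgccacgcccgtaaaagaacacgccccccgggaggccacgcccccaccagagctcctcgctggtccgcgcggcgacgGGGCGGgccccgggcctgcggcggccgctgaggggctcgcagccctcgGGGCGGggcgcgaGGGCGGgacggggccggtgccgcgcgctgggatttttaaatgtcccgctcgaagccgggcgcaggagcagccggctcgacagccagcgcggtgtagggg
Cdk6, chr5:3343643-3343942, plus strand: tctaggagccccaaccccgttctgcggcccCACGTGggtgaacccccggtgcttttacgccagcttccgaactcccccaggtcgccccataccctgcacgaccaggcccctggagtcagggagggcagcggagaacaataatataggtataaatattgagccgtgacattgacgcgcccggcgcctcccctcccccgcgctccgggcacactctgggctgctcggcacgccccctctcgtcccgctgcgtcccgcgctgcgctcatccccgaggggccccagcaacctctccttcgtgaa
Cdk4, chr10:127063285-127063584, plus strand: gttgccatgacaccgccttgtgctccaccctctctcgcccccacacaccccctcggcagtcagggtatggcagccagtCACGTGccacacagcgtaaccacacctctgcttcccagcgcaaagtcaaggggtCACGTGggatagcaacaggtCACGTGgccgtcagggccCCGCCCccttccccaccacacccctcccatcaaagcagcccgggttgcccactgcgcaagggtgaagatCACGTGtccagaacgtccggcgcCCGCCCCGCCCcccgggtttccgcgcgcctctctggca
Rbl1, chr2:157204485-157204784, minus strand: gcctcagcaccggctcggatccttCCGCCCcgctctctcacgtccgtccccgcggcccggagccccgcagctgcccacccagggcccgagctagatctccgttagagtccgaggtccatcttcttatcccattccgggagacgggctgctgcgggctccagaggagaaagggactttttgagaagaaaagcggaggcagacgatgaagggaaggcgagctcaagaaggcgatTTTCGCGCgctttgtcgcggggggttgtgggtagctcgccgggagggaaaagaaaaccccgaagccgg
No match of one motif overlapped one of another, and 2 GC boxes of Cdk4 shared 1 base. The Ccne1 window held 4 GC boxes and no match to the other letters, which says only that these letters are not in this window. The Cdk4 window held 4 E-boxes and 3 GC boxes, and the Cdk6 window 1 E-box, 220 bases before the start. In the Rbl1 window the E2F-type letters began 18 bases before the start. Of the 8 windows, 7 held a GC box, 2 an E-box (Cdk4 and Cdk6), 2 an E2F-type match (Cdk2 and Rbl1) and 1 the CHR letters (Rbl2). Ccnd3 was counted with 2 windows. The shares of all 32851 windows with a match were 35.7%, 7.15%, 1.84% and 17.9% for the GC box, E-box, E2F-type letters and CHR. G and C made up from 50.7% (Rbl2) to 76.0% (Ccne1) of the letters in the 8 windows. The shares of all windows are not matched for this, so the counts cannot show an excess of GC boxes. These matches describe letters and not sites, and no binding was measured.

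Of the G1 kinases, Cdk6 was lower in the knockout libraries, and Cdk4 and Cdk2 overlapped the controls. Cdk6, the D-type cyclin kinase most tied to blood progenitors, stood at 38.5 and 35.6 FPKM in the knockouts, against 59.0, 49.6 and 48.6 FPKM in the controls. Both knockout values were below every control. The log2 difference was -0.48 (SE 0.11), 0.715-fold with a 95% interval from 0.587 to 0.871, and the limma adjusted p was 0.0595. Without control replicate 1, the highest library, the difference was -0.40 and the adjusted p 0.0195, with 29.8% of all genes called. In the other leave-outs the adjusted p lay between 0.106 and 0.363. The part of the neutrophil and progenitor markers in the Cdk6 difference was not tested.

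Cdk4, the other partner of the D-type cyclins, stood at 568 and 567 FPKM in the knockouts, against 544, 655 and 624 FPKM in the controls. The knockout values lay between the lowest and the middle control, and the log2 difference was -0.094 (SE 0.12, limma adjusted p = 0.636). Without control replicate 1 that difference was -0.17 with an adjusted p of 0.0842. Cdk4 exons overlap Tspan31 on the opposite strand, which stood at 92.1 and 93.4 FPKM in the knockouts and at 76.2, 80.7 and 82.0 FPKM in the controls. Per length, Cdk4 was 14.7 and 15.9 times as abundant as Cdk6 in the knockouts, against 9.21, 13.2 and 12.8 times in the controls. Cdk6 held 5.63% ± 0.282 of the summed kinase FPKM in knockout cells and 7.39% ± 1.36 in control cells.

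Cdk2, the kinase of cyclins E and A, was the steadiest of the 9 genes, at 54.5 and 53.6 FPKM in the knockouts and 56.3, 54.0 and 55.0 FPKM in the controls. The groups overlapped, with a log2 difference of -0.027 (SE 0.066, limma adjusted p = 0.815). Its 95% interval from 0.874-fold to 1.10-fold was the narrowest of the set. Against this level of kinase, the ratio of Cdk2 to Ccne1 FPKM was 1.44 and 1.37 in the knockouts, against 2.47, 2.44 and 1.88 in the controls. The Pmel gene, whose exons overlap those of Cdk2 on the opposite strand, was below 1 FPKM in every library.

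**Figure D3:**
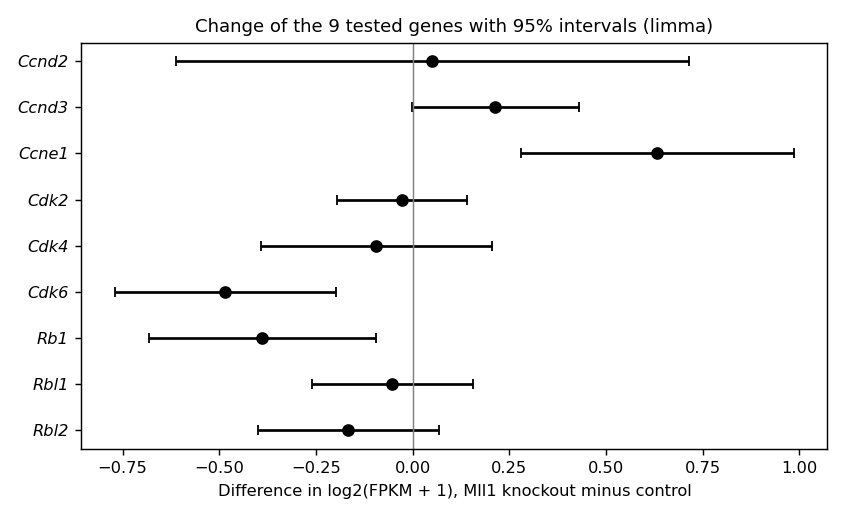
Log2 difference (x axis, log2(FPKM + 1), Mll1 knockout minus control) of the 9 tested genes with 95% intervals from limma, n = 2 and 3 libraries. The intervals of Ccne1 (above 0), Cdk6 and Rb1 (below 0) do not reach 0 before adjustment over all genes; the others do.

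Rb1, the retinoblastoma tumour suppressor gene, lay below every control in both knockouts. It stood at 8.38 and 9.26 FPKM in the knockouts, against 13.3, 11.4 and 10.9 FPKM in the controls. The log2 difference was -0.39 (SE 0.115), 0.764-fold with a 95% interval from 0.623 to 0.936, and the limma adjusted p was 0.0950. Control replicate 1 again held the highest value. Without it the difference was -0.31 and the limma adjusted p 0.0501, with 29.8% of all genes called. No other leave-out gave Rb1 an adjusted p under 0.1. Over all alternatives its difference lay between -0.45 and -0.29. Exons of Rb1 overlap Rcbtb2 and Lpar6 on the opposite strand. Rcbtb2 was at 12.8 and 11.9 FPKM in the knockouts and at 16.1, 12.0 and 10.4 FPKM in the controls, a level like that of Rb1 itself.

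The p107 gene Rbl1, itself an E2F-driven gene in dividing cells, stood at 12.6 and 13.4 FPKM in the knockouts, against 13.5, 13.0 and 14.2 FPKM in the controls. The groups overlapped (log2 difference -0.052, SE 0.081, limma adjusted p = 0.708), and the 95% interval ran from 0.835-fold to 1.11-fold. The p130 gene Rbl2, whose product holds E2F target genes silent in resting cells, stood at 10.9 and 11.3 FPKM in the knockouts, against 13.5, 12.7 and 11.7 FPKM in the controls. Its knockout values lay just below the lowest control, with a log2 difference of -0.17 (SE 0.091, limma adjusted p = 0.287). Aktip, which overlaps exons of Rbl2 on the opposite strand, stood at 5.64 and 7.22 FPKM in the knockouts and at 7.44, 9.38 and 8.49 FPKM in the controls.

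Summed over the RB family the libraries held 31.9 and 34.0 FPKM in the knockouts, against 40.3, 37.1 and 36.8 FPKM in the controls. Rb1 made up 26.7% ± 0.663 of that sum in knockout cells and 31.2% ± 1.79 in control cells. Rbl1 made up 39.5% ± 0.0766 in knockout cells and 35.7% ± 2.72 in control cells, and Rbl2 33.7% ± 0.587 in knockout cells and 33.2% ± 1.33 in control cells. The summed D-type cyclins were 146 and 146 FPKM in the knockouts, against 120, 142 and 131 FPKM in the controls. These sums are descriptions without a test, since the genes were chosen with results of these data known.

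The E2F and DP genes, which encode the partners of the RB proteins and their dimer subunits, held 2 members that fell and none that rose of 10 tested, beside 5.97% of all genes called lower. Tfdp2, a DP subunit gene, fell to 7.92 and 7.50 FPKM in the knockouts, against 13.9, 12.5 and 12.7 FPKM in the controls (log2 difference -0.68, SE 0.088, limma adjusted p = 0.0192). E2f5, encoding an E2F that binds p130 and represses, fell to 3.22 and 3.40 FPKM, against 5.88, 4.80 and 5.35 FPKM in the controls (-0.56, adjusted p = 0.0469). E2f5 overlaps another gene on the opposite strand. The activator genes E2f1, E2f2 and E2f3 had log2 differences of -0.13, -0.080 and 0.27, with adjusted p of 0.491, 0.727 and 0.158; without control replicate 1, E2f1 was called lower (-0.22, adjusted p = 0.0420). E2f4, the most abundant E2F gene, stood at 88.5 ± 3.34 FPKM in knockout cells and 76.7 ± 6.25 FPKM in control cells (adjusted p = 0.223). The atypical E2f8 had a difference of 0.37 (adjusted p = 0.119), and E2f6, E2f7 and Tfdp1 lay between -0.083 and 0.094. The list median was -0.031, beside -0.028 for all genes, and -0.075 without control replicate 1.

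**Figure D4:**
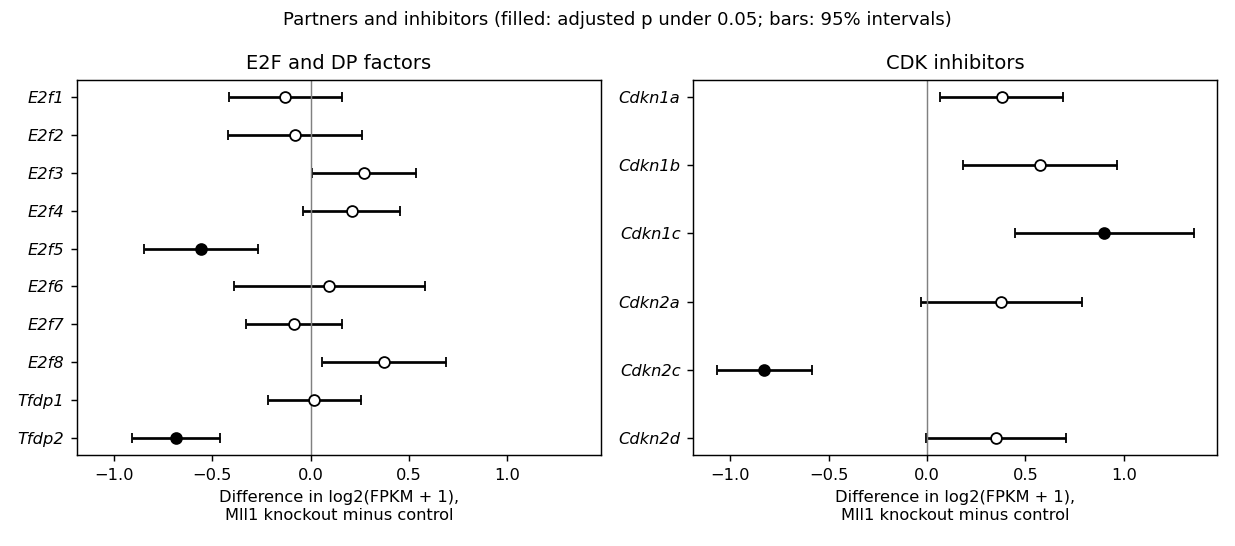
Log2 difference (x axis, log2(FPKM + 1), Mll1 knockout minus control) of the tested E2F and DP genes (left) and CDK inhibitor genes (right), with 95% intervals and filled points at a limma adjusted p under 0.05. Among the filled points Tfdp2, E2f5 and Cdkn2c lie below 0 and Cdkn1c, which passed the filter only through the knockout libraries, above it.

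Of 6 CDK inhibitor genes tested 1 was called lower, Cdkn2c, beside 5.97% of all genes, and 1 higher, Cdkn1c, beside 3.82%. Cdkn2c, the p18 gene whose product blocks CDK4 and CDK6, fell to 2.41 and 2.55 FPKM in the knockouts, against 5.37, 5.12 and 5.04 FPKM in the controls (log2 difference -0.83, SE 0.094, limma adjusted p = 0.0159). Cdkn1c, the p57 gene of quiescent stem cells, was at 1.798 and 1.14 FPKM in the knockouts, against 0.262, 0.337 and 0.330 FPKM in the controls. It passed the filter only through the knockout libraries, so its call supports nothing, and it overlaps an antisense gene. Cdkn1b, the p27 gene, stood at 20.8 and 19.0 FPKM in the knockouts, against 15.8, 11.3 and 12.5 FPKM in the controls (adjusted p = 0.0796). Cdkn1a, Cdkn2a and Cdkn2d had positive differences of 0.38, 0.38 and 0.35 without a call, and Cdkn2b was below the filter. In 5 of the 6 tested genes, Cdkn1c included, the knockout values lay above every control, beside 22.9% of all genes. In 1 they lay below every control, beside 29.4%. The list median, Cdkn1c included, was 0.38, and 0.48 without control replicate 1, when Cdkn1a (adjusted p = 0.0149) and Cdkn1b (adjusted p = 0.0125) were called higher too, beside 11.9% of all genes. The size of these low genes moved with the pseudocount: Cdkn1c stood at 1.91 with 0.1 and 0.28 with 5, Cdkn2c at -1.03 and -0.44, and E2f5 at -0.67 and -0.32. Cdkn1c was called with neither of these pseudocounts.

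Other regulators of G1 and the MuvB complex, which joins p107 and p130 to form the DREAM repressor, held no called gene under limma (0 of 11 and 0 of 7 tested, beside 9.79% of all genes). At an unadjusted p under 0.05 there were 4 and 1, beside 29.8% of all genes. The list medians were 0.11 and 0.097, or -0.052 and 0.026 without control replicate 1, so the first turned its sign. Cdc25a, the phosphatase gene that activates CDK2, stood at 32.1 and 33.7 FPKM in the knockouts, against 26.0, 22.7 and 26.2 FPKM in the controls (adjusted p = 0.0649). Fbxw7, encoding the ubiquitin ligase subunit that marks cyclin E for destruction, stood at 4.41 and 4.53 FPKM, against 7.83, 6.27 and 6.25 FPKM in the controls (adjusted p = 0.0683). Of the CDK-activating kinase genes, Mnat1 had a difference of -0.34 (adjusted p = 0.107) and Cdk7 of 0.22 (adjusted p = 0.144). In the MuvB list, Mybl2, encoding B-MYB, had the smallest p, at 52.6 and 55.0 FPKM, against 28.8, 41.0 and 44.4 FPKM in the controls (adjusted p = 0.162). Lin37, Dyrk1a and Lin9 followed, with adjusted p of 0.206, 0.358 and 0.516. Without control replicate 1, Cdc25a (adjusted p = 0.0372) and Skp2 were called higher, Fbxw7 (adjusted p = 0.0233), Mnat1 and Ccnh lower, and Mybl2 higher, with 11.9% of all genes called higher and 18.0% lower.

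Downstream, the E2F target genes of S phase held no called member under limma (0 of 19, beside 9.79% of all genes, and 2 at an unadjusted p under 0.05, beside 29.8%) and a median log2 difference of 0.090, or -0.0090 without control replicate 1. In 7 of the 19 genes the knockout values lay above every control, beside 22.9% of all genes, and in 1 below every control, beside 29.4%. Cdc6, which loads the replication helicase, stood at 20.1 and 21.9 FPKM in the knockouts, against 14.5, 14.9 and 17.1 FPKM in the controls (adjusted p = 0.0655). Rrm2, a ribonucleotide reductase gene, stood at 240 and 266 FPKM, against 165, 181 and 210 FPKM in the controls (adjusted p = 0.0898). Uhrf1 and Orc1 had differences of 0.20 and 0.29 (adjusted p = 0.170 and 0.204). Tyms alone was called without control replicate 1, and was lower (log2 difference -0.26, limma adjusted p = 0.0467), beside 18.0% of all genes called lower. Relative to the other controls, the median of this list was -0.036 and 0.026 in the knockouts and -0.25 in control replicate 1. Of 16 genes of G2 and mitosis 1 rose, beside 3.82% of all genes: Cdc20, which activates the anaphase-promoting complex, to 188 and 176 FPKM, against 76.9, 93.8 and 97.3 FPKM in the controls (limma adjusted p = 0.0176); Cdc20 overlaps Elovl1 on the opposite strand. Knockout values lay above every control in 6 of the 16, beside 22.9% of all genes, and below every control in 2, beside 29.4%. The 6 included Plk1, Cdk1 and Ccnb1, with limma adjusted p of 0.0535, 0.0673 and 0.0961. The 2 included Bub1b, with a log2 difference of -0.27 (limma adjusted p = 0.0966). At an unadjusted p under 0.05 there were 6 of 16, beside 29.8% of all genes. Without control replicate 1 the list held 5 genes called higher and 3 called lower, beside 11.9% and 18.0% of all genes. The median of this list was 0.091, beside -0.028 for all genes, and 0.048 without control replicate 1.

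Besides Cdkn1c, the 4 called genes of these 6 lists, Tfdp2, E2f5, Cdkn2c and Cdc20, were also called without control replicate 1. None of them was called without control replicate 2, control replicate 3 or either knockout replicate, where their adjusted p lay between 0.0544 and 0.327 and 111, 204, 7 and 0 genes were called in all. Over all the alternatives that could test them, Tfdp2 was called in 9 of 14, E2f5 in 5 of 13, Cdkn2c in 8 of 13 and Cdc20 in 8 of 14.

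**Figure D5:**
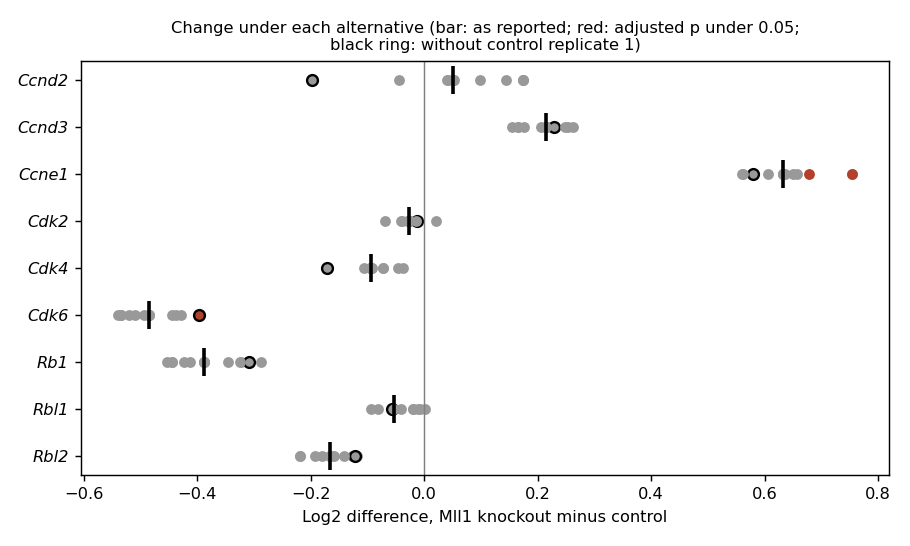
Log2 difference (x axis, Mll1 knockout minus control) of the 9 tested genes as reported (black bar) and under each alternative (points; red at an adjusted p under 0.05; black ring without control replicate 1). Ccne1 stays above 0 and Cdk6, Rb1, Cdk4 and Rbl2 below 0 under every alternative drawn, and Ccnd2, Cdk2 and Rbl1 fall on both sides.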

How the data were processed

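Gene expression was measured by RNA sequencing of 5 libraries, from a stranded mRNA kit per the labels. The authors deposited FPKM values, 1 per Ensembl gene and library; among the tools in the submitters' processing notes are Cuffdiff, GSNAP, SAMtools and CASAVA 1.8.2, with mm9 as the build. Neither the annotation nor any use of strand in counting is given in the sources used here. Exons of 8 of the 10 genes overlap those of a gene on the opposite strand (exons in GENCODE M21). Reads from the shared bases may therefore have been counted for either gene, and their part in each value is unknown. Without counts, absolute depth is unknown.

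The 16 genes with a value of 999999999 in any library were left out as failed estimates, and genes under 1 FPKM in all but 1 library or in all libraries were not tested. Differences are Mll1 knockout minus control on log2(FPKM + 1), which understates changes of low genes. They were tested with limma 3.58.1 in R 4.3.3 (intensity trend, Benjamini-Hochberg adjustment over 11780 genes). The same fit was also run on simulated data in which genes vary independently, and no result of that run is used here. Groups follow the sample titles. The 10 genes and the 6 lists of pathway genes were chosen with earlier results of these data known. Named were all 10 genes, the called members and up to 4 members of smallest p of each list, all E2F, DP and inhibitor genes, and the 4 genes of nearest profile to the gene of largest difference. Bub1b, Tyms, Skp2 and Ccnh were named in addition. Of 8 marker lists, the progenitor, lymphoid and neutrophil ones are given with the results. The summed FPKM of the erythroid list was 26.7 and 25.6 in the knockouts and 40.4, 14.3 and 13.1 in the controls, of the mast cell list 1100.1 and 1123 against 522, 756 and 679, of the monocyte list 6.54 and 7.23 against 19.8, 19.4 and 16.1, of the megakaryocyte list 39.0 and 31.1 against 68.0, 50.8 and 38.5, and of the stromal list 39.1 and 40.0 against 55.4, 39.8 and 40.8. Alternatives covered the pseudocount, filter, scaling, trend, replicate number as a block, threshold and each library left out; setting failed estimates to missing was added after seeing the data.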

Additional observations from a re-analysis of the deposited data

How the results depend on the processing

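Of the 10 genes, 0 were called as tested, 1 after median-ratio scaling (Ccne1), 0 to 1 with a library left out (Cdk6 without control replicate 1, Ccne1 without control replicate 3) and 3 at an adjusted p under 0.1 (Ccne1, Cdk6 and Rb1). Over all genes, 450 were called higher and 703 lower; these became 227 and 214 with no filter on low values, 1021 and 1414 at an adjusted p under 0.1, and between 0 and 1398 and between 0 and 2118 with a library left out. With 1 knockout library left, that sample is assumed to vary like the controls. With the replicate number as a block 12 were called higher and 43 lower, and none of the 10 genes was called. No knockout library has replicate number 3, so control replicate 3 adds nothing to the differences of the block fit. They equal those without control replicate 3. Deviations of same-numbered libraries from their group means correlated at 0.037 and 0.012. With 2 knockouts the deviations of 1 mirror those of the other, so these values cannot say whether same-numbered libraries share an origin. The Ccnd2 difference lay between -0.20 and 0.17 with a library left out, below 0 without control replicate 1 (-0.20) and without knockout replicate 2 (-0.044), Cdk2 was at 0.020 after median-ratio scaling and Rbl1 at 0.0019 after quantile normalization; the cause was not tested. For the 9 tested genes no other alternative turned the direction. The files hold no counts, so the precision that depth gives to each value is unknown.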
